A study of Mus musculus with 4 samples.

Results

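The secreted growth factor, cytokine and chemokine families were represented by 85 mouse genes, out of 6025 genes named on the arrays. A gene was taken when its symbol began with Fgf, Bmp, Wnt, Gdf, Il, Igf, Ccl, Cxcl, Tgfb, Inhb, Vegf or Pdgf followed by a digit or by a single letter, with Pdgfra left out. The names alone do not make a protein a secreted signal: 59 of the genes encode ligands (a secreted antagonist, Il1f5, included), 17 encode receptor chains and 9 encode other proteins, so these were kept apart. No Gdf gene was among them. The genes were measured in embryonic stem (ES) cells, pluripotent cells of the early mouse embryo, grown without feeder cells, starved of serum for 72 h and then given serum for 4 h. The fosBd/d line is homozygous for an allele that makes only ΔFosB, the truncated form of the AP-1 subunit FosB. The fosB-null line was the second mutant, and wild-type ES cells served as the control on every array. Each mutant was hybridised on 2 arrays with 2 colours, with the mutant labelled in Cy3 on replicate 1 and in Cy5 on replicate 2. How many clones stood for each genotype, and whether a swap reused 1 RNA extract, was not stated in the sources, so p-values reflect array-to-array spread, and that spread may be technical only.

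Values are log2 ratios from the authors' deposited ratios, and means are given ± SD over 2 arrays. A positive fosBd/d value is called likely higher in fosBd/d than in wild-type cells, while values of fosB-null carry a sign but no named direction, which could not be settled. The authors seem to have given the 2 arrays of a swap one orientation before deposit, since exact zeros carried a minus sign on 1 array of each mutant (960 values on fosBd/d replicate 1 and 551 on fosB-null replicate 2). Even so, arrays with the mutant in the same dye correlated negatively between the mutants over all 9480 probes (r = -0.463 for replicate 1 and -0.369 for replicate 2), and so did the 2 arrays of a swap (r = -0.125 for fosBd/d and -0.318 for fosB-null). Arrays with the mutant in opposite dyes correlated positively between the mutants. For fosBd/d replicate 1 with fosB-null replicate 2 r was 0.336, and for fosBd/d replicate 2 with fosB-null replicate 1 it was 0.326. The zeros with a minus sign also stood on arrays with the mutant in opposite dyes, Cy3 in fosBd/d and Cy5 in fosB-null. Read by the dye names, fosBd/d runs mutant over wild type and fosB-null the other way; read by the colour words in the labels, both turn round. Both run mutant over wild type only if all deposited values follow 1 convention, which the sources do not state and which was not tested. Over the 85 genes the 2 arrays of a swap correlated at 0.186 in fosBd/d and at 0.0870 in fosB-null, given as a description over genes that share an array. A ratio within an array gives no level, so the ES identity of the cells could not be checked, and no probe was listed for Fosb itself. In these bulk samples fewer cells of a type and less RNA per cell cannot be told apart.

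Growth factors of the FGF, PDGF, VEGF and IGF families bind receptor kinases at the cell surface. Ligands of the BMP, activin and TGF-β families bind serine/threonine kinase receptors and act through SMAD proteins, Wnt ligands act through Frizzled receptors and β-catenin, and most interleukins act through paired receptor chains and the JAK-STAT pathway. Chemokines are small secreted proteins that guide migrating cells through G protein-coupled receptors. In mouse ES cells, BMP4 and gp130 signalling support self-renewal in culture, FGF signalling promotes lineage commitment, and AP-1 is a known regulator of many cytokine genes.

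Promoters are shown for 3 ligands. Fgf10 and Cxcl15 reached 2-fold on both arrays in 1 of the mutants. Wnt5b did not, and was picked because 1 of its 3 windows holds an AP-1 match. Its other windows, without a match, are not shown. Each window runs from 250 bases before to 50 after an annotated start, is read 5′ to 3′ on the gene's strand and comes from RefSeq on GRCm38.p6. Capitals mark an AP-1 match (TGANTCA, N being any base) or a TATA match (TATAAA), and a line in lower case throughout has neither.
Fgf10 (chr13:118714449-118714748, plus strand): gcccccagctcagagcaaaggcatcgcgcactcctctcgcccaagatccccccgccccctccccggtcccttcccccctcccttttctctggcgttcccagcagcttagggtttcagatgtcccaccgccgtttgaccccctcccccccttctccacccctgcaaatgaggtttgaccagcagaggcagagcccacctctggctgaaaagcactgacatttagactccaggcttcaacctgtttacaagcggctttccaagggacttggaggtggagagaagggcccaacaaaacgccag
Wnt5b (chr6:119544298-119544597, minus strand): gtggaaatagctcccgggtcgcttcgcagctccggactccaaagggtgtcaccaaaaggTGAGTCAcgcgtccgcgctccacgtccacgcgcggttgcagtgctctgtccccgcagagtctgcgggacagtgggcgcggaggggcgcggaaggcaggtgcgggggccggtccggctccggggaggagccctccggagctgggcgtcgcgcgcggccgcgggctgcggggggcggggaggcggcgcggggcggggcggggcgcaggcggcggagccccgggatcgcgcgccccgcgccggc
Cxcl15 (chr5:90794284-90794583, plus strand): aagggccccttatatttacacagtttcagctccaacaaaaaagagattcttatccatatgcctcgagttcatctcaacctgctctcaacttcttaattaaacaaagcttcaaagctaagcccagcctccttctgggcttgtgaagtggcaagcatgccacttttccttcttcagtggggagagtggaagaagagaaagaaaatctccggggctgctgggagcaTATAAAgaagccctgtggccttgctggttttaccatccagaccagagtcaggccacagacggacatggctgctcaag
RefSeq windows were found for 65 of the 85 genes, 86 windows in all. The AP-1 letters were searched on both strands and stood in 9 of the 86 windows (10.5%), beside 7.81% of all 32851 windows, and the TATA letters in 18.6% beside 13.6%. The cyclic AMP response element TGACGTCA was in 0 of the 86, beside 1.79% of all windows. The Wnt5b match began at position -191 from the start, in 1 of its 3 windows, and the other windows with AP-1 letters belonged to Ccl27a, Ccl28, Ccl9, Cxcl10, Cxcl9, Fgf12, Igf1 and Il16. Of the 9 members past 1.5-fold on both arrays of a mutant, 7 had windows, 12 windows in all. Only Wnt5b held the AP-1 letters, in 1 of the 12, beside 7.81% of all windows, so that count is near the background. A match describes letters, not binding.

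In fosBd/d cells most ligand means lay near 0, and a few growth factors lay on the positive side on both arrays. A mean near 0 need not be a steady value. Of the 59 ligands, 19 changed sign between the fosBd/d arrays and 14 had an exact 0, beside 3818 and 1186 of all 8939 features. The SD over the 2 arrays was above the size of the mean in 38 (64.4%), beside 64.9%. Fgf10, a ligand that drives budding of epithelia such as that of the lung, had log2 ratios of 1.42 and 1.42 in fosBd/d, against 0.42 and -0.06 in fosB-null. Its fosBd/d mean was 2.68-fold (limma SE 0.14 on the log2 scale, adjusted p = 0.291), and both fosBd/d arrays lay above both fosB-null arrays. Fgf10 was the only 1 of the 85 genes to reach 2-fold in one direction on both fosBd/d arrays (1.18%), beside 1.58% of all 8939 features (1.23% positive and 0.347% negative), so the share is near the background.

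Igf2, an imprinted growth factor of the embryo and placenta, had ratios of 0.91 and 1.43 in fosBd/d and 0.07 and -0.37 in fosB-null. Its fosBd/d mean of 1.17 ± 0.36 was 2.25-fold (adjusted p = 0.291). Igf2r, the receptor that clears IGF2 to lysosomes, lay on the same side with 0.54 and 0.41 in fosBd/d, and had -0.16 and -0.02 in fosB-null. Igf1 gave no such value: its first probe read 0.74 and 0.19 in fosBd/d and its second -0.71 and -0.17, so they lay on opposite sides of 0. The receptor kinase Igf1r stood at 0.07 on both fosBd/d arrays, and at 0.39 and 0.06 on the fosB-null arrays.

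Of the 8 Wnt ligands, 4 were positive and 1 was negative on both fosBd/d arrays, beside 21.7% and 22.3% of all features, with a median of 0.31. Wnt5b, a ligand of the non-canonical branch, had 1.26 and 0.71 in fosBd/d (mean 0.99 ± 0.39), and 0.07 and -0.27 in fosB-null. Wnt4, which acts in kidney and gonad development, had the highest fosBd/d mean of all ligands, 1.92 ± 2.05, but that mean rests on replicate 1 at 3.37, with replicate 2 at 0.47. Its fosB-null values were -0.78 and -0.31. Wnt2b was negative with -1.72 and -0.29 in fosBd/d, again led by replicate 1, and had -0.13 and -0.13 in fosB-null. Wnt11 and Wnt8a were positive on both fosBd/d arrays at 0.22 and 0.11 and at 0.37 and 0.36. Wnt5a, Wnt3a and Wnt6 changed sign between the fosBd/d arrays.

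Among the other FGF ligands, Fgf15, a hormone-like FGF of the embryo and gut, had 0.94 and 0.61 in fosBd/d, and 0.04 and -0.50 in fosB-null. Fgf1 had 0.54 and -0.29 in fosBd/d. Pdgfc, a ligand of PDGF receptor α, was the only ligand at least 1.5-fold negative on both fosBd/d arrays, with -0.71 and -0.59 (mean -0.65 ± 0.08), and had -0.07 and -0.33 in fosB-null. Vegfc, a lymphatic growth factor, had -0.78 and -0.27 in fosBd/d, and -0.36 and -0.62 as deposited in fosB-null, so the mutants lay on opposite sides of 0 once fosB-null was turned. Vegfa, the main angiogenic factor, disagreed between the arrays on both of its probes. In fosBd/d the first read 1.13 and -0.52 and the second 1.71 and -0.22.

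**Figure D1:**
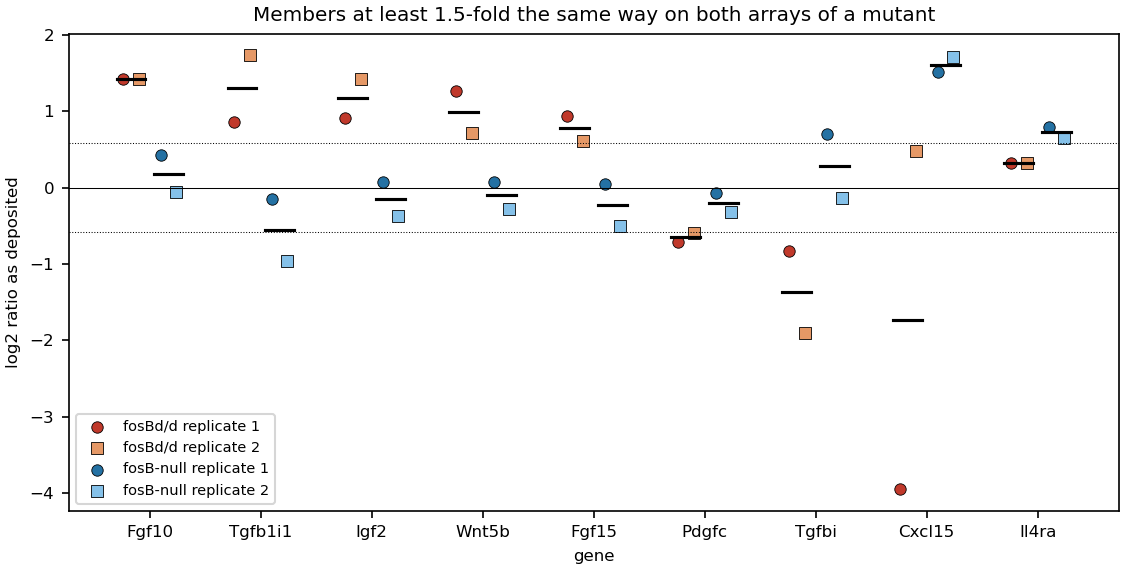
Log2 ratios as deposited (y axis) of the 9 members past 1.5-fold in one direction on both arrays of either mutant (x axis), with 1 point per array, short lines at the mean of each mutant and dotted lines at 1.5-fold. Fgf10 stands at 1.42 on both fosBd/d arrays, while Cxcl15 has -3.94 and 0.48 in fosBd/d and 1.51 and 1.71 in fosB-null.

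Of the 8 BMP, activin and TGF-β ligands, 0 were positive and 2 negative on both fosBd/d arrays, beside 21.7% and 22.3% of all features. Bmp4, which supports self-renewal of mouse ES cells, had -0.03 and -0.27 in fosBd/d. In fosB-null it had the lowest mean of all ligands as deposited, with -1.27 and -0.46, which would be the highest with the sign turned. Bmp6 read 1.06 and -1.19 in fosBd/d, more than 2-fold in opposite directions, and 0.44 and 0.21 in fosB-null. Bmp8a had -0.07 and -1.90 in fosBd/d, so its mean of -0.99 ± 1.30 rests on replicate 2. Tgfb2 stood at 0.03 and exactly 0 in fosBd/d, and at -0.70 and -0.22 in fosB-null.

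Interleukins and chemokines went both ways in fosBd/d, with medians of -0.0050 over 12 interleukin ligands and -0.10 over 20 chemokines, beside -0.02 over all features. The SD over the 2 arrays was above the size of the mean in 16 of the 20 chemokines (80.0%), beside 64.9% of all features. An exact 0 stood on a fosBd/d array in 8 of the 20, beside 13.3% of all features, and enters these medians. Those 8 are among the 16 by arithmetic, since an exact 0 on 1 array alone puts the SD above the size of the mean. Cxcl10, an interferon-induced chemokine that attracts T cells, was positive at 0.21 and 0.99 in fosBd/d, and had 0.53 and 0.01 in fosB-null. Il33, an alarmin of the interleukin 1 family, had 0.32 and 0.75 in fosBd/d and 0.52 and -0.11 in fosB-null. Il15, which sustains natural killer cells, was negative at -0.56 and -0.42 in fosBd/d. Cxcl15, a CXC chemokine known from mouse lung, had the lowest fosBd/d mean of all ligands, -1.73 ± 3.13, from -3.94 on replicate 1 and 0.48 on replicate 2. Ccl4, a macrophage chemokine, had exactly 0 and -2.08.

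Exact zeros were frequent among the chemokines on 1 array. On fosBd/d replicate 1, 7 of 20 chemokines (35.0%) were listed at exactly 0, beside 10.1% of all probes on that array: Ccl12, Ccl22, Ccl3, Ccl4, Ccl8, Cxcl5 and Cxcl9. The count was 1 of 20 on fosBd/d replicate 2, and 2 and 0 on the fosB-null arrays. Over all 85 genes, 14 were at exactly 0 on fosBd/d replicate 1, 4 on replicate 2, and 2 and 1 on the fosB-null arrays. At least 1 exact 0 was found in 16 of the 85 genes in fosBd/d and 3 in fosB-null, beside 13.3% and 7.57% of all features. Among the 6025 named genes alone the counts were 443 and 150, so the all-feature shares include many zeros from other probes. Il2 and the interleukin 7 receptor chain Il7r were at exactly 0 on both fosBd/d arrays. Signal intensities were not analysed here, so whether these spots were dim was not tested.

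**Figure D2:**
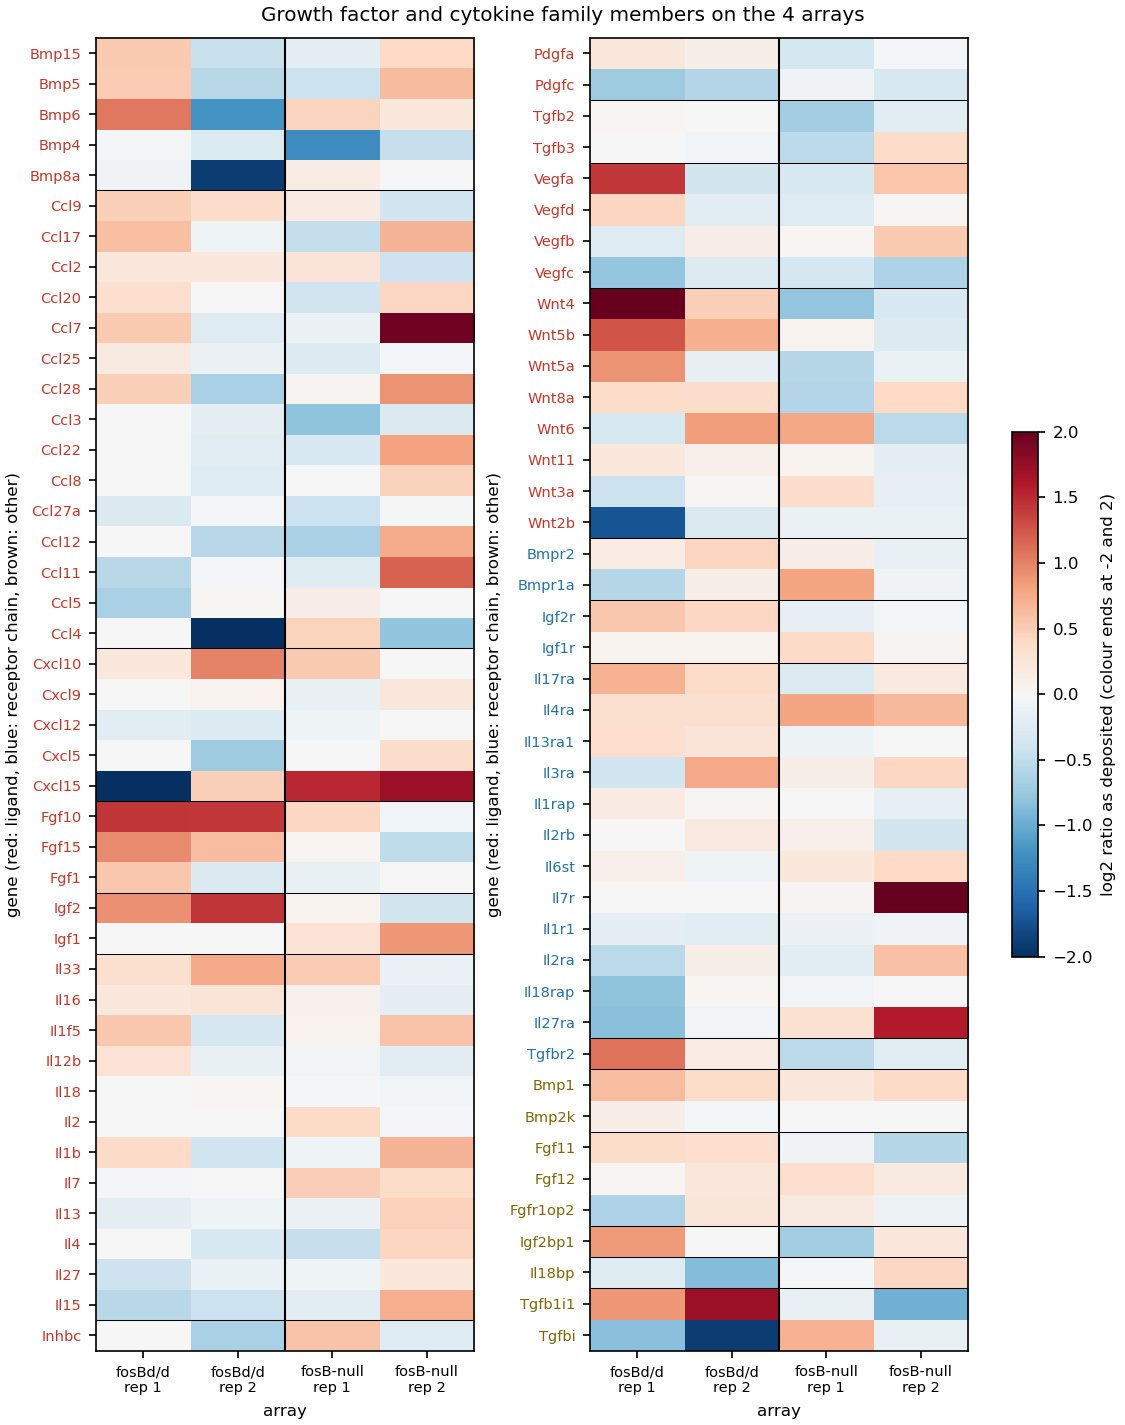
Log2 ratio as deposited (colour) of all 85 members (rows, grouped by role and family, highest fosBd/d mean first) on the 4 arrays (columns). Rows such as Bmp6 (1.06 and -1.19) change colour between the 2 fosBd/d arrays, and Fgf10 and Igf2 keep theirs.

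Receptor chains were more often positive than negative on both fosBd/d arrays, and none passed the size rule. Of 17, 8 were positive and 2 negative on both arrays (47.1% and 11.8%), beside 21.7% positive and 22.3% negative among all features, and the median was 0.10. The number past 1.5-fold in one direction on both arrays was 0. Tgfbr2, the type II TGF-β receptor, had the highest mean at 0.62 ± 0.67, from 1.09 and 0.15, and had -0.52 and -0.23 in fosB-null. Il17ra, the interleukin 17 receptor, had 0.70 and 0.36 in fosBd/d, and -0.27 and 0.20 in fosB-null. Il4ra, shared by the interleukin 4 and 13 receptors, had 0.32 and 0.32, and its partner chain Il13ra1 had 0.34 and 0.26 in fosBd/d and -0.10 and 0.01 in fosB-null.

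At the low end of the receptor chains in fosBd/d, 4 of 5 rested on replicate 1 alone. Il27ra had -0.83 and -0.06, Il18rap -0.80 and 0.03, Il2ra -0.53 and 0.12, and the type I BMP receptor Bmpr1a -0.57 and 0.11. Il1r1, the signalling receptor for interleukin 1, was close on both arrays at -0.18 and -0.21. Il6st, which encodes gp130, the chain that carries the leukaemia inhibitory factor signal used to maintain ES cells, had 0.10 and -0.09 in fosBd/d, and 0.21 and 0.40 in fosB-null.

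The other proteins that share these names held 2 sizeable values in fosBd/d. Tgfb1i1, a LIM-domain adaptor of focal adhesions also called Hic-5, had 0.86 and 1.73 in fosBd/d, and -0.15 and -0.97 in fosB-null. Its fosBd/d mean was 2.45-fold (1.30 ± 0.61, adjusted p = 0.291). Tgfbi, a secreted matrix protein, was the lowest of this group with -0.83 and -1.90 in fosBd/d (mean -1.36 ± 0.75), and had 0.70 and -0.14 in fosB-null. Bmp1, the protease that trims procollagens, had 0.62 and 0.37 in fosBd/d, and 0.21 and 0.38 as deposited in fosB-null. Its difference between the mutants was 0.20 as deposited and 0.79 with the sign turned. The RNA-binding protein Igf2bp1 had 0.85 and 0.01 in fosBd/d, and the intracellular FGF homologous factors Fgf11 and Fgf12 were positive on both fosBd/d arrays, at 0.37 and 0.33 and at 0.04 and 0.23.

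Counted together, 5 of the 85 genes (5.88%) were at least 1.5-fold positive on both fosBd/d arrays, beside 3.24% of all features. On the negative side there were 2 (2.35%), beside 1.31%, and 4.55% of all features passed on either side. The positive ones were Fgf10, Igf2, Wnt5b, Fgf15 and Tgfb1i1, and the negative ones Pdgfc and Tgfbi. In limma 0 of the 85 passed at an adjusted p of 0.05, beside 0.00% of all features, with the smallest at 0.291. At an unadjusted p under 0.05 the count was 13 (15.3%), beside 16.0% of all features, so it did not stand out from the background. The SD over the 2 arrays was above the size of their mean in 50 of the 85 genes (58.8%), beside 64.9%. A gene at exactly 0 on 1 array alone enters such a count by arithmetic, in either mutant.

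Most markers of extraembryonic endoderm lay on the positive side on the fosBd/d arrays. The marker lists were chosen with earlier results of these data known, so their counts are a description only. Of 21 extraembryonic endoderm markers measured of 27 listed, 15 were at least 1.5-fold positive on both fosBd/d arrays and 0 negative, with a median of 1.71. The shares of all features were 3.24% and 1.31%. In fosB-null 1 was positive and 1 negative at 1.5-fold, beside 0.548% and 0.515%, and the median was -0.19. By sign alone, 3 were positive and 11 negative on both fosB-null arrays (14.3% and 52.4%), beside 18.7% and 18.9% of all features. Of the 10 pluripotency markers measured of 19 listed, 2 were at least 1.5-fold negative on both fosBd/d arrays (Nr5a2 and Alpl) and 0 positive. The shares of all features were 1.31% and 3.24%. By sign alone, 3 were positive (Utf1, Lin28a and Fut4) and 4 negative on both fosBd/d arrays, beside 21.7% and 22.3% of all features. Pou5f1, Nanog and Sox2 were listed but not among the 10. Of the 10 feeder fibroblast markers measured of 16 listed, 1 was at least 1.5-fold positive in fosBd/d (S100a4), beside 3.24%. At the same size 3 were negative in fosB-null (Col1a1, Col1a2 and Tnc), beside 0.515%. Of the 9 blood cell markers measured of 16 listed, 1 was at least 1.5-fold negative in fosBd/d (Adgre1), beside 1.31%. The pluripotency markers had medians of -0.15 in fosBd/d and -0.28 in fosB-null, the feeder fibroblast markers 0.18 and -0.19, and the blood cell markers -0.28 and 0.12. The part of extraembryonic endoderm cells in the values of Fgf10, Igf2, Wnt5b and Fgf15 was not tested.

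In fosB-null cells the family gave few values that held on both arrays. Cxcl15 had 1.51 and 1.71 (mean 1.61 ± 0.14, a 3.05-fold ratio) and was the only member at 2-fold on both arrays, 1 of 85 (1.18%) beside 0.224% of all features (0.134% positive and 0.0895% negative). Its limma SE was 1.08 and its adjusted p 0.706, since the fit shares its spread with the fosBd/d arrays, where Cxcl15 read -3.94 and 0.48. Il4ra was the other member past 1.5-fold, with 0.80 and 0.65 in fosB-null (mean 0.72 ± 0.11, adjusted p = 0.650). These 2 were 2.35% of the 85, beside 0.548% of all features on the positive side, and 0 were negative, beside 0.515% (1.06% on either side). With the sign turned, both would lie on the negative side.

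Other fosB-null means of some size rested on replicate 2. Ccl7, a monocyte chemokine, had -0.12 and 1.94, Ccl11, which attracts eosinophils, had -0.25 and 1.18, Il7r had 0.05 and 2.02, and Il27ra had 0.30 and 1.58. Ccl28 had 0.06 and 0.90, and Ccl12 read -0.65 and 0.74, past 1.5-fold in opposite directions. Il7, a lymphocyte growth factor, gave close values on its 2 probes, with 0.40 and 0.45 and with 0.60 and 0.30, while in fosBd/d all 4 of its values lay between -0.08 and 0.04. Igf1 was positive on both of its probes in fosB-null, at 0.18 and 1.14 and at 0.39 and 0.60. Ccl3 was negative at -0.80 and -0.28.

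The fosB-null medians were 0.04 for ligands and -0.01 for receptor chains, beside 0.0043 for all features. Of the 59 ligands, 9 were positive and 13 negative on both arrays (15.3% and 22.0%), beside 18.7% and 18.9% of all features. Between the arrays 35 of the 59 changed sign, beside 4903 of all 8939 features, so that count is near the background. The 17 receptor chains split into 6 positive, 5 negative and 6 of mixed sign. Il1rap (-0.01 and -0.16), Il2rb (0.11 and -0.37), Il1r1 (-0.12 and -0.07) and Igf2r were among the 5 lowest receptor means as deposited, and Bmpr1a (0.78 and -0.08) was among the 5 highest, an order that turns round with the sign. In limma 0 of the 85 passed, beside 0.00%, with the smallest adjusted p at 0.650, and 7 had an unadjusted p under 0.05 (8.24%), beside 6.07% of all features. The SD over the 2 arrays was above the size of their mean in 63 of the 85 genes (74.1%), beside 68.0%.

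The dye term was at least 1.5-fold for 5 of the 85 genes, beside 11.1% of all features, and at least 2-fold for Cxcl15 alone, at 1.06 on the log2 scale, beside 3.71%. Among the 6025 named genes alone the counts were 482 and 97. The term was coded with fosB-null running opposite to fosBd/d.

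**Figure D3:**
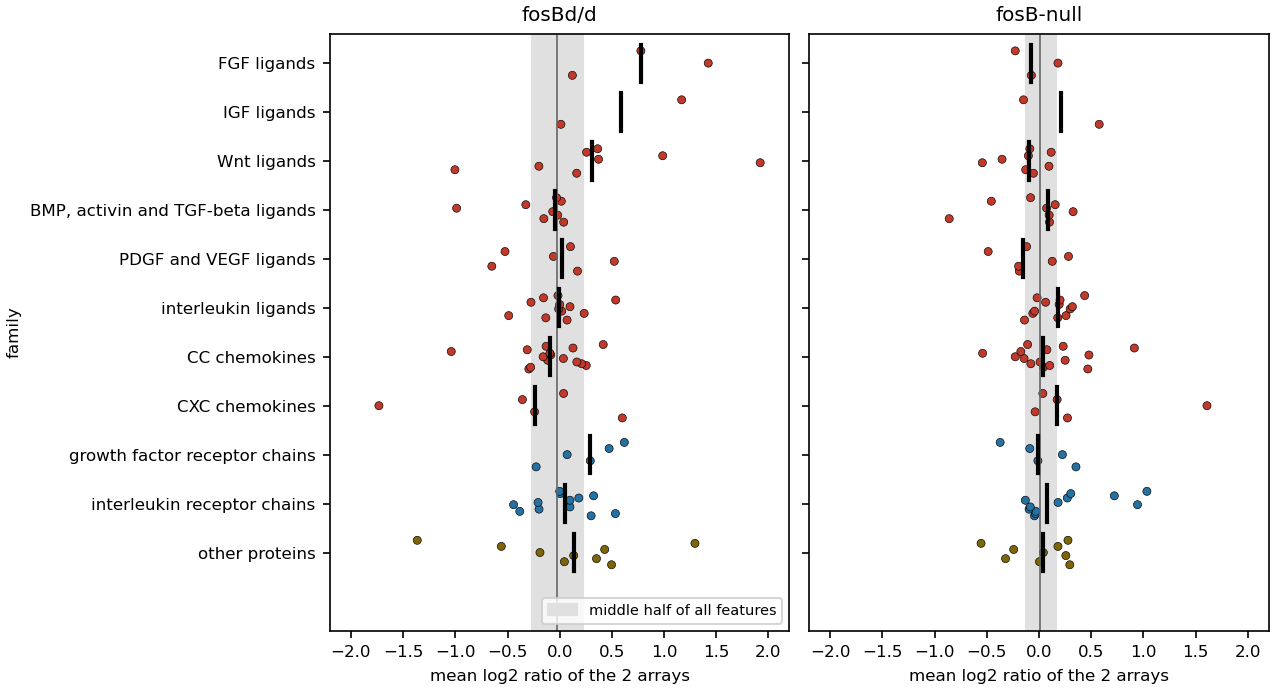
Mean log2 ratio of the 2 arrays (x axis) for each member by family (y axis), with 1 point per gene, thick lines at family medians and grey bands over the interquartile range of all features (left, fosBd/d; right, fosB-null). The median of the 3 FGF ligands is 0.78 in fosBd/d and -0.07 in fosB-null, and those of the chemokines lie near 0.

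Family medians in fosBd/d were 0.78 for 3 FGF ligands, 0.31 for 8 Wnt ligands, 0.02 for 6 PDGF and VEGF ligands, -0.05 for 8 BMP, activin and TGF-β ligands, -0.09 for 15 CC chemokines and -0.24 for 5 CXC chemokines. The corresponding fosB-null medians were -0.07, -0.10, -0.15, 0.08, 0.04 and 0.17. Growth factor receptor chains had medians of 0.29 in fosBd/d and -0.01 in fosB-null (5 genes), and interleukin receptor chains 0.05 and 0.08 (12 genes). The 2 IGF ligands had medians of 0.59 in fosBd/d and 0.21 in fosB-null, and the 12 interleukin ligands 0.19 in fosB-null. Over all features the medians were -0.02 in fosBd/d and 0.0043 in fosB-null. No test was made of any family.

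The difference between the mutants was taken as fosBd/d minus fosB-null in 2 readings. The reading as deposited is a difference only if all deposited values follow 1 convention, and by the dye names or the colour words the one with fosB-null turned round applies. Both comparisons share the wild-type control. Past 2-fold there were 11 members as deposited and 11 with the sign turned, and 4 of the 85 were the same way in both, beside 2.85% of all features: Wnt4 (2.46 and 1.38), Igf2 (1.32 and 1.02) and Fgf10 (1.24 and 1.60) on the positive side, and Tgfbi (-1.64 and -1.09) on the negative side. A gene can pass in both only if its fosBd/d mean is itself at least 2-fold, so passing in both is no separate support. The Wnt4 differences had a limma SE of 0.81, and its fosBd/d mean rests on replicate 1. Differences of 2-fold or more were positive for 6 members as deposited, beside 3.26% of all features, and negative for 5, beside 4.51%. With the sign turned they were again 6 and 5, beside 3.36% and 3.74%. Tgfb1i1 stood at 1.85 and 0.74, Wnt5b at 1.09 and 0.88, and Fgf15 at 1.01 and 0.55. Others depended on the reading, with -3.34 and -0.12 for Cxcl15, -0.40 and 1.05 for Il4ra, 0.71 and -1.01 for Bmp4, and -0.04 and -1.01 for Vegfc. Read by the colour words, each difference with the sign turned would have the other sign. In limma 0 of the 85 passed, with the smallest adjusted p at 0.353 as deposited and 0.516 with the sign turned. Both used a dye term coded with fosB-null running opposite to fosBd/d, which the reading as deposited does not assume. At an unadjusted p under 0.05 there were 9 and 11, beside 14.0% and 9.25% of all features.

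**Figure D4:**
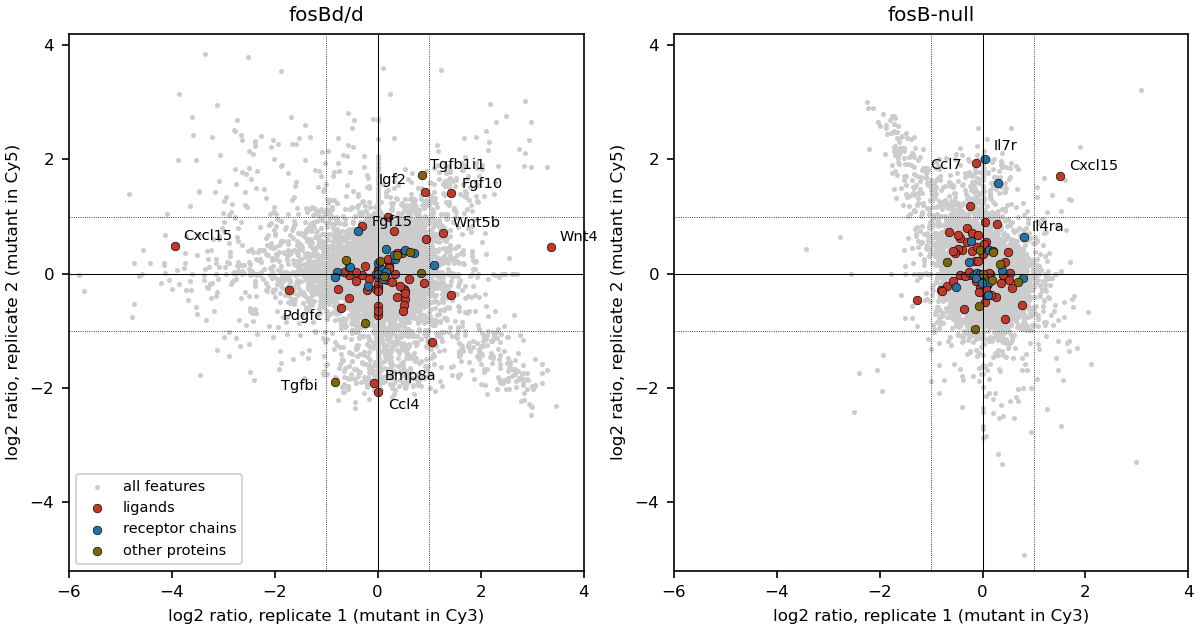
Log2 ratio on replicate 1 (x axis) against replicate 2 (y axis) for fosBd/d (left) and fosB-null (right), with all 8939 features in grey, members in colour and dotted lines at 2-fold. A gene that differs the same way on both arrays lies in the upper right or lower left, where Fgf10 (1.42 and 1.42) and Cxcl15 in fosB-null (1.51 and 1.71) stand beyond the lines.

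Components of the same pathways that do not carry these names were set against the same background, 3.24% of all features positive and 1.31% negative at 1.5-fold on both fosBd/d arrays. Of 20 measured BMP, activin and TGF-β components, 1 was at least 1.5-fold positive and 0 negative on both fosBd/d arrays: Fst, follistatin, the secreted activin antagonist, with 2.25 and 1.40 (mean 1.83 ± 0.60), and -0.56 and -0.24 in fosB-null. Of 27 Wnt components 2 were positive and 1 negative. The secreted Wnt antagonist Frzb had 1.76 and 0.80 and the transcription factor Tcf7l2 0.97 and 0.96, while Sfrp4, another secreted antagonist, had -0.82 and -1.82. Of 25 FGF, PDGF, VEGF and IGF components only Pdgfra passed the size rule, the receptor for PDGFC and PDGFA and also one of the endoderm markers above, with 1.68 and 1.37 in fosBd/d and -0.03 and -0.40 in fosB-null. Of 43 cytokine and chemokine components 3 were positive and 0 negative: Pias3, which binds STAT3, had 1.32 and 1.25, the tumour necrosis factor receptor Tnfrsf1a 1.32 and 0.98, and Socs5, a suppressor of cytokine signalling, 0.60 and 1.12. In fosB-null 0 components of any of the 4 lists reached 1.5-fold on both arrays, beside only 1.06% of all features on either side. With lists of this size a count of 0 does not set the mutants apart. In limma 0 components passed in either mutant.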

How the data were processed

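The values deposited by the authors, from 2-colour Agilent Mouse cDNA arrays, were read as log10 ratios of both channels. Per the submitters' processing notes, Agilent Feature Extraction was used. The sources used here give no version, background correction or dye normalization. That software defines its ratio on a log10 scale, which is the basis of every fold change printed. Values were multiplied by the log2 of 10. Probes were named from a 2007 platform annotation, with symbols updated by identifier for 6496 of 6566 probes with 1 gene. Probes of a gene were averaged (4 members had several), and other probes kept as they were, giving 8939 features.

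limma 3.58.1 (R 4.3.3) was fitted to the 4 arrays together, with 1 coefficient for each mutant and 1 for the dye (1 residual degree of freedom, 1.31 prior degrees of freedom), two-sided, with Benjamini-Hochberg adjustment over all features at 0.05. Beside it, a size rule without a test took members 2-fold or 1.5-fold the same way on both arrays. Members named with values were those past 1.5-fold, those past it in opposite directions, and the 5 highest and 5 lowest means of ligands and receptors in each mutant, and pathway genes were named past 1.5-fold. Further members (such as Igf1r, Vegfa, Cxcl10, Il33, Il15, Il7, Il2, Bmp1, Fgf1, Fgf11, Fgf12, Igf2bp1, Wnt8a and Wnt11) were named after their values were seen. Members and lists were chosen with earlier results of these data known. The number of arrays limits the precision.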

Additional observations from a re-analysis of the deposited data

Results flagged for a closer look

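Tgfb1i1 drew attention because both fosBd/d arrays lay on the positive side (0.86 and 1.73) and both fosB-null arrays on the negative side (-0.15 and -0.97), as deposited. The difference, fosBd/d minus fosB-null, was 1.85 on the log2 scale with a limma SE of 0.13 and did not pass (adjusted p = 0.353). That SE and p come from a dye term coded with fosB-null running opposite to fosBd/d, unlike the reading as deposited. After fosB-null was turned round the difference was 0.74 and the mutants lay on the same side.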

How the results depend on the processing

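In limma 0 members and 0 of all features passed under every fit run (no dye term, arrays scaled to one spread, each array centred, exact zeros set to missing, a fit per probe, the arrays of 1 mutant only, each array left out, and the fosB-null sign turned). With so few arrays (1 residual degree of freedom in the reported fit) this says nothing about stability, nor that values did not differ. Also, centring changed no value since every array's median was 0, and turning the sign leaves the p of fosB-null as it was. Members with an unadjusted p under 0.05 ranged from 5 to 16 in fosBd/d, 1 to 9 in fosB-null, and 0 to 10 and 3 to 13 for the difference as deposited and turned. Fits without an array had no dye term. The counts of all features at that p ranged from 330 to 1503, 43 to 673, 139 to 1320 and 153 to 865. The ligand median in fosB-null was -0.042 with the sign turned and -0.019 without chemokines (chosen after seeing the data), and the receptor median there was 0.085 when any letter after the prefix was allowed. The median receptor difference was -0.10 as deposited (-0.15 to 0.07 with an array left out) and 0.28 with the sign turned. With an array left out, medians ranged from -0.093 to 0.016 for ligands in fosBd/d, from -0.079 to 0.042 for ligands in fosB-null and from -0.011 to 0.049 for receptor chains in fosB-null. The number of members past the size rule then ranged from 1 to 8 (2-fold) and 7 to 23 (1.5-fold) in fosBd/d, and from 1 to 5 and 2 to 17 in fosB-null, since only 1 array of that mutant had to pass. Membership by the platform's own symbols gave the same 85 genes, and with exact zeros set to missing 68 of them remained. Fgf10 stood at 1.27 and Cxcl15 in fosB-null at 1.81 with arrays scaled. The fit on the arrays of 1 mutant gives no difference between mutants. No paired analysis was possible because the replicate numbers follow accession order. They coincide with the dye orientation, which the dye term fits; without it 9, 3 and 6 members had an unadjusted p under 0.05 in fosBd/d, fosB-null and the difference as deposited. The cause of these shifts was not tested. Signal over background was not analysed here.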

Other observations

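Genes whose names begin with the same letters but did not meet the rule included the IGF-binding proteins, which carry IGFs in blood and tissue. Igfbp4 had 0.92 and 0.57 in fosBd/d, and -0.40 and -0.07 in fosB-null. Igfbp6, which prefers IGF2, had 1.04 and 0.26 in fosBd/d, and -0.36 and 0.07 in fosB-null. Igfbp3 was on the other side with -0.80 and -0.11 in fosBd/d. Igfbp5 (-1.10 and 0.51) and Igfbp2 (0.34 and -1.05) changed sign between the fosBd/d arrays. Fgfbp1, which releases FGFs from the matrix, was positive on both fosB-null arrays at 0.42 and 0.71, and had -0.11 and -0.23 in fosBd/d. The PDGF receptor chain Pdgfrb had 1.39 and -0.66 in fosB-null, in opposite directions.

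The dye coefficient had a median size of 0.196 over the 85 genes, 0.191 over the 6025 named genes and 0.204 over all features. Its part in single values was not tested.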
